A study of Mus musculus with 19 samples.

Results

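The genes described are the 8 that encode the CIDE proteins (*Cidea*, *Cideb* and *Cidec*) and the perilipins (*Plin1* to *Plin5*), which were chosen by gene symbol out of 55740 genes listed in the RNA-Seq tables of the study. All 8 were measured in 7 tissues and in cold-exposed brown adipose tissue (BAT), and 7 were listed in cold-exposed inguinal white adipose tissue (iWAT), whose table holds 13756 genes without *Cideb*. The study asked how Musclin, a peptide secreted by skeletal muscle and encoded by *Ostn*, acts on fat. Male C57BL/6J WT mice gave 1 library for each of 7 tissues. These were tibialis anterior (TA) muscle, heart, liver, small intestine, brain, white fat and brown fat. The cold groups were males of both genotypes, WT and MCK-Musclin, at an age of 5 months on chow diet, all kept at 8 °C for 1 week, with 3 libraries for each genotype and tissue, whose values are given in the order of their numbers. MCK-Musclin mice carry the Musclin coding sequence under the muscle creatine kinase promoter, a promoter of striated muscle, and the transgenic line behind these libraries is not given in the sources used here. Whether an iWAT and a BAT library came from the same mouse is not stated, nor is the depot of the white adipose library or the age of the mice of the 7 tissues. The study states that its RNA-Seq used independent animals within a genotype or treatment, without linking them to library numbers. If the numbered libraries were not separate mice, the p-values measure only the spread between these libraries.

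The lipid droplet stores triglyceride inside a single layer of phospholipid, and the proteins on that layer decide how large the droplet grows and how easily lipases reach the fat. Perilipins are the classical coat. Perilipin 1 shields the large droplet of fat cells and holds back the lipase coactivator ABHD5 until protein kinase A phosphorylates the coat, perilipin 2 is the general coat of most cells, perilipin 3 moves between cytosol and droplet, perilipin 4 coats small nascent droplets, and perilipin 5 ties droplets to mitochondria in tissues that burn fat. CIDE proteins gather where droplets touch and let the smaller droplet drain into the larger, with CIDEC (also called FSP27) known from the single large droplet of white fat, CIDEA from brown and beige fat, and CIDEB from liver and intestine, where it also serves lipoprotein secretion.

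The promoters of 4 members are shown because these genes span the patterns described here, with *Plin1* and *Cidec* largely limited to fat and *Plin4* and *Plin5* lying next to each other with different tissue patterns. The GENCODE annotation of GRCm38 places *Plin1* on the minus strand at chr7:79720218-79732903, *Cidec* on the minus strand at chr6:113424634-113435760, *Plin4* on the minus strand at chr17:56100591-56109803 and *Plin5* on the minus strand at chr17:56111601-56117596, so that 1797 bases separate *Plin4* from *Plin5*. *Plin3* lies on the same strand of the same chromosome, 159879 bases from *Plin5*. A promoter window, from RefSeq on GRCm38.p6, covers 250 bases before and 50 bases after a transcript start, and windows of 7 of the 8 members were in the RefSeq promoter table used here. *Cidec* and *Plin5* had 2 windows each, for different transcript starts, and the more upstream one is shown. The windows span chr7:79732727-79733026 for *Plin1*, chr6:113435711-113436010 for *Cidec*, chr17:56109733-56110032 for *Plin4* and chr17:56117499-56117798 for *Plin5*, all on the minus strand and written 5′ to 3′. Capitals mark matches on either strand to the CCAAT box, which reads as ATTGG when it lies on the other strand, or to the GC box, GGGCGG, and none of the printed matches overlap.
Plin1: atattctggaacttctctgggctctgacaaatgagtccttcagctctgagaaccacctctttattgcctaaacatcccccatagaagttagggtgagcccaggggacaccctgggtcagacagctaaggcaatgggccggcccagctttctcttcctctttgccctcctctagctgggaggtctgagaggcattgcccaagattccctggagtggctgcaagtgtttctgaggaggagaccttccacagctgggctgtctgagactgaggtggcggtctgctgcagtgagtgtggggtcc
Cidec: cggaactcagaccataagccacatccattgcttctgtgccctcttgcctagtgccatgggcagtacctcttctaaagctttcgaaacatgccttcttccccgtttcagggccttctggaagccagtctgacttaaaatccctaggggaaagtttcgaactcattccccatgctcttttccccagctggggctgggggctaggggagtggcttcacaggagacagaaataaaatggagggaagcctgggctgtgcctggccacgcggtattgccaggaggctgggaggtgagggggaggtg
Plin4: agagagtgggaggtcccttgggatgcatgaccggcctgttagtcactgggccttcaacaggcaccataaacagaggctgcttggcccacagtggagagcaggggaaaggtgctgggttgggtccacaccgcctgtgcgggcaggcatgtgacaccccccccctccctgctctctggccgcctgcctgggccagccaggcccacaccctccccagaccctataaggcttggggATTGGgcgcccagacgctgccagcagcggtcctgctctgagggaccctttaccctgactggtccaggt
Plin5: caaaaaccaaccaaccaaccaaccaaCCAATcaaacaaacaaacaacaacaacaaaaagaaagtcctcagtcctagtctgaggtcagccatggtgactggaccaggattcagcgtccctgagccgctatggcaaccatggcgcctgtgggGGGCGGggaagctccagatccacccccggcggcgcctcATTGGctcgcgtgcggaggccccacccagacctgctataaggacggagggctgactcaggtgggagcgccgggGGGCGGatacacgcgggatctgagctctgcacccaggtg
The window of *Plin5* shown here held 2 CCAAT matches and 2 GC boxes, that of *Plin4* held 1 CCAAT match, and those of *Plin1* and *Cidec* held neither. The other window of *Plin5*, at chr17:56117249-56117548, held 0 CCAAT matches and 2 GC boxes, and the other window of *Cidec* held neither. Across 32851 promoter windows of the same length 37.4% held CCAAT and 35.7% held GGGCGG, so both are common. *Plin3* had 1 CCAAT match and 3 GC boxes. *Plin2* was the member with a CACGTG match, which 7.15% of all windows hold, and *Cideb* the member with TATAAA, which 13.6% hold. A perfect DR1 repeat, the kind of element that PPARγ binds together with RXR, was in none of the windows of the 7 members and in 0.0396% of all windows. TGACG, the core of the cAMP response element, was in none of them and in 20.8% of all windows. These matches describe letters in a window and not sites of binding.

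In the 7 tissues the coat genes fell into fat-restricted members, members spread over several tissues, and *Cideb*, which was high in small intestine and liver. FPKM, the fragments of a gene relative to its exon length and to all mapped fragments of the library, allows levels of different genes to be set side by side within a library. *Cidea* had 1638 FPKM in brown adipose tissue, 18.4 in heart and 3.08 or less in the other 5 tissues, 0.385 in white adipose tissue among them. Brown adipose tissue held 98.6% of its FPKM summed over the 7 tissues, and the level there was 89.1 times that in heart, the next tissue. *Cidec* was highest in white adipose tissue at 1357 FPKM, followed by brown adipose tissue at 518 and small intestine at 29.1, and it was between 0 and 1.45 in the other 4 tissues. White fat thus carried *Cidec* with almost no *Cidea*, while brown fat carried both, with *Cidea* at 75.7% of the summed CIDE FPKM. *Cideb* had 133 FPKM in small intestine and 125 in liver, 8.34 in brown adipose tissue and 2.76 or less in the other 4. The small intestine to liver ratio of 1.06 has no replicate behind it, and under median-ratio scaling of the 7 libraries liver came first, with a log2 ratio of -0.77. The exons of *Cideb* share 1136 bases, or 76.3% of their length, with the antisense gene *Nop9*, and because strand was not used some of the *Cideb* level could come from *Nop9*, which itself had 6.36 FPKM in liver and 7.36 in small intestine. In TA muscle and white adipose tissue *Nop9* was higher than *Cideb*, at 4.02 and 5.13 FPKM against 0.519 and 0.704. In brain and heart it was slightly lower, at 2.29 and 2.19 FPKM. The low values of *Cideb* are thus the less certain ones.

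Among the perilipins *Plin1* was the most restricted, with 885 FPKM in white and 379 in brown adipose tissue and at most 0.317 in any other tissue, so that both fats held 99.95% of its summed FPKM. *Plin4* followed, with 664 FPKM in white adipose tissue, 142 in brown adipose tissue, 24.7 in heart, 21.9 in TA muscle and 1.18 or less in liver, brain and small intestine. *Plin5* had another order. It was highest in brown adipose tissue at 59.2 FPKM, followed by heart at 30.0, liver at 14.9, TA muscle at 10.4 and white adipose tissue at 3.57, and it is listed at 0 in brain and small intestine. *Plin4* and *Plin5*, neighbours in the genome, therefore stood furthest apart in level in white adipose tissue, where *Plin4* was high and *Plin5* low. *Plin2* had the smallest share of its summed FPKM in its highest tissue, 30.9% against 41.4% for *Plin3*, although *Plin3* spanned the smaller range, from 2.89 to 40.4 FPKM. *Plin2* had 140 FPKM in brown adipose tissue, 124 in white adipose tissue, 109 in liver, between 22.5 and 29.6 in TA muscle, heart and small intestine and 2.65 in brain. The brown to white ratio of *Plin2* was 1.13, and with each library rescaled to the same sum white adipose tissue came first instead, with a log2 ratio of -0.59. *Plin3* was highest in small intestine at 40.4 FPKM, followed by heart at 18.3, brown adipose tissue at 16.4 and white adipose tissue at 12.4, with 4.33 or less in liver, TA muscle and brain. With 1 library per tissue none of these orders has a replicate check, and neighbours such as *Plin2* in the fats and liver cannot be ranked.

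**Figure D1:**
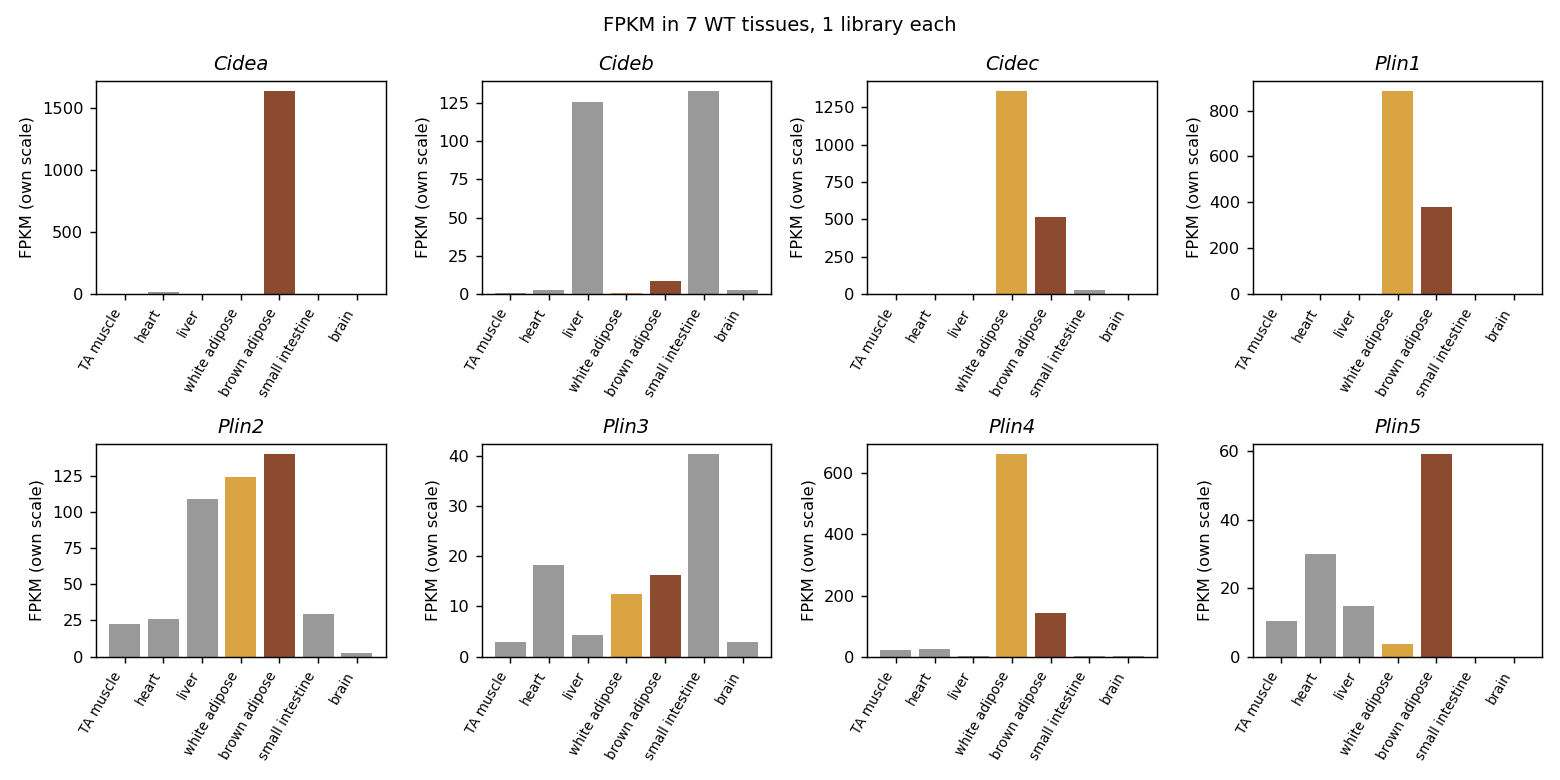
FPKM of each of the 8 genes in the 7 WT tissues, 1 library each, as bars from 0 on a linear axis of its own for each gene, with white adipose tissue in ochre and brown adipose tissue in dark brown. *Cidea* stands almost alone in brown adipose tissue at 1638 FPKM, *Plin1* is seen in the fats alone, *Cideb* in small intestine and liver, and *Plin2* in most tissues.

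The composition of the perilipin mRNA, taken as the share of each gene in the summed FPKM of *Plin1* to *Plin5*, differed between tissues accordingly. Coat protein was not measured here, and its shares may differ from those of the mRNA. *Plin1* made up 52.4% in white and 51.4% in brown adipose tissue. *Plin2* made up 84.2% in liver, *Plin3* 57.1% in small intestine, *Plin5* 30.4% in heart and *Plin4* 37.7% in TA muscle, where *Plin2* had 38.8%. In heart the shares of *Plin5*, *Plin2* and *Plin4* lay within a few percentage points of one another, at 30.4%, 26.1% and 25.0%. These shares do not depend on the scaling of a library.

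Over the 7 tissues the genes whose pattern was most like that of a member were searched among 10413 genes with a highest FPKM of at least 10, as Pearson's r of log2(FPKM + 1). *Plin1* was closest to *Adipoq*, which encodes adiponectin (r = 0.999), then to *Irs3* and *Trarg1*. *Cidec* was closest to *Lgals12* (r = 0.988), which encodes a galectin of fat cells, followed by *Pparg* (r = 0.983), the main regulator of fat cell formation. *Cidea* was closest to *Ndufb3* (r = 0.994), a respiratory complex I subunit. With 7 points, each from another tissue and most of them at or near 0 for the restricted genes, these values describe which tissues a gene is high in and carry no test.

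Before the cold groups are compared, their libraries differed in ways that touch these genes. FPKM of a library summed to between 364710 and 384104 in iWAT and between 676362 and 720852 in BAT, and read counts are unknown. The depth of the BAT libraries relative to WT library 1, read from the steps between low FPKM values, was between 0.890 and 1.11. For the BAT libraries other than WT library 1, the most common step held 3.41% to 4.14% of the low genes, so these values are rough. In iWAT the same steps gave 0.396 to 1.06, but from 14 to 32 low genes per library, too few for a usable estimate. The 10 most abundant genes took 11.9% to 13.0% of all FPKM in iWAT and 48.4% to 51.3% in BAT. *Ostn* was listed at 0 in the WT BAT libraries and at 30.3 to 37.9 FPKM in the MCK-Musclin BAT libraries. The WT iWAT libraries had *Ostn* at 0, 0 and 0.225 FPKM and the MCK-Musclin iWAT libraries at 0, 5.17 and 4.21, so the library labelled MCK-Musclin 1 of iWAT showed no *Ostn*. Fast skeletal muscle markers were also low in that library, since 11 of them summed to 11.1 FPKM there with 2 at 0, against 163 and 193 in MCK-Musclin libraries 2 and 3 and 11.0, 853 and 4782 across the WT libraries. General adipocyte markers were present in every iWAT and BAT library, and *Ucp1* was present in all BAT libraries at 2778 FPKM or more. In bulk tissue fewer cells of a type and less RNA per cell cannot be told apart.

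In cold-exposed iWAT *Cidea* was lower in MCK-Musclin mice, but not in each library. *Cidea*, which GENCODE places at chr18:67343604-67367785 on the plus strand, had 290, 358 and 427 FPKM across the WT libraries and 294, 103 and 70.2 across the MCK-Musclin libraries. MCK-Musclin libraries 2 and 3 lay far below the WT libraries, whereas MCK-Musclin library 1 lay among them, so the groups overlapped. The means were 358 ± 68.1 (SD, n = 3) and 156 ± 121 (SD, n = 3), and the level in MCK-Musclin mice was 0.434 times that in WT mice. On the log2(FPKM + 1) scale the fold change was -1.45 with a standard error of 0.48 and a 95% interval from -2.57 to -0.34 (limma, unadjusted p = 0.0177, adjusted p = 0.213 over 12197 genes). The call at an unadjusted p under 0.05 was lost without WT library 3, where the log2 fold change was -1.32, and without library 2 or 3 of the MCK-Musclin mice, where it was -1.29 or -1.02. Without MCK-Musclin library 1 the call held and the log2 fold change was -2.05. An exact two-sided permutation test over the libraries, which cannot go below 0.1 with 3 against 3, gave p = 0.2.

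*Plin2* was the other member past the unadjusted threshold in iWAT. Its FPKM was 231, 245 and 185 across the WT libraries and 189, 162 and 142 across the MCK-Musclin libraries. The ranges met at their edge, where MCK-Musclin library 1 was slightly above WT library 3. The log2 fold change was -0.42 with a standard error of 0.15 (unadjusted p = 0.0255, adjusted p = 0.237, limma). The exact permutation p was 0.2. The call was lost at -0.20 when libraries were centred on adipocyte markers, and on leaving out WT library 1 or 2 (-0.38 and -0.34) or MCK-Musclin library 2 or 3 (-0.41 and -0.32).

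*Plin5* had 8.78, 12.9 and 17.2 FPKM across the WT libraries and 11.9, 5.43 and 4.66 across the MCK-Musclin libraries. As for *Cidea*, MCK-Musclin libraries 2 and 3 were the lowest of the 6 and MCK-Musclin library 1 lay within the WT range. The log2 fold change of -0.80 (SE 0.35) did not pass (unadjusted p = 0.0528, adjusted p = 0.307, limma). It passed the unadjusted threshold with each library rescaled to the same sum (-0.85) or by median ratios (-0.87), and without WT library 1 (-1.03) or MCK-Musclin library 1 (-1.17). The exact permutation p was 0.2. Skeletal muscle expresses *Plin5*, and WT library 3, which was highest in *Plin5*, was also highest in muscle markers. At the ratio of *Plin5* to fast muscle markers in the TA muscle library, the markers in WT library 3 would bring 0.345 FPKM of *Plin5*, or 2.01% of its level, and in each other iWAT library 0.475% or less. That ratio comes from a single library, and other muscle may have another ratio. The part of muscle in the *Plin5* difference was not tested.

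*Cidec* was the member whose iWAT groups did not overlap. It had 958, 1388 and 959 FPKM across the WT libraries and 882, 845 and 906 across the MCK-Musclin libraries, and WT library 2 stood well above the rest. The log2 fold change of -0.31 (SE 0.17) did not pass (unadjusted p = 0.105, adjusted p = 0.399, limma), and without WT library 2 it was -0.13. The exact permutation p was 0.1, the smallest possible. *Plin1*, *Plin3* and *Plin4* differed less than their libraries varied. *Plin1* had 424 to 484 FPKM in WT and 366 to 503 in MCK-Musclin mice, with a log2 difference of -0.14 and a 95% interval from -0.47 to 0.20. *Plin4* had 184 to 280 FPKM in WT and 162 to 264 in MCK-Musclin mice, with a log2 difference of -0.22 and an interval from -0.76 to 0.32. *Plin3* had 5.43 to 7.09 FPKM in WT and 5.83 to 6.45 in MCK-Musclin mice, with a log2 difference of -0.02 and an interval from -0.30 to 0.26.

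Of the 7 members in iWAT, 2 passed an unadjusted p under 0.05, both lower in MCK-Musclin mice, beside 3.44% of all 12197 genes tested that did so in that direction. None had an adjusted p under 0.05, nor did any other gene (0% of those tested, limma, smallest adjusted p 0.0912), while 2012 genes had an unadjusted p under 0.05. Every MCK-Musclin library was below every WT library for 1 member, *Cidec*, and for 5.44% of all genes. The estimates of all 7 were below 0, beside 38.7% of those of all genes tested. The median log2 fold change of the 7 was -0.31, beside 0.06 over all genes. After centring on the general adipocyte markers, which moved the median of all genes to 0.28, 5 of the 7 were below 0, and *Plin1* and *Plin3* were above it at 0.08 and 0.19.

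Markers of cell types were compared between the genotypes in iWAT as well, and not all followed the library order of *Cidea*. Of 10 brown and beige fat markers, 10 had lower estimates and 6 passed an unadjusted p under 0.05, with a median log2 fold change of -1.28. Their mean log2(FPKM + 1) was 3.50, 4.16 and 4.31 across the WT libraries and 3.71, 2.64 and 1.67 across the MCK-Musclin libraries, the same order of libraries as for *Cidea* within each group. *Ucp1* had 130, 248 and 346 FPKM across the WT libraries and 173, 31.6 and 2.91 across the MCK-Musclin libraries. Of 11 fast muscle markers, 11 had lower estimates and 0 passed (limma, unadjusted), with a median of -2.22. Of 10 lymphocyte and lymph node markers, 10 were higher at an unadjusted p under 0.05, and they summed to 232 to 339 FPKM in WT and 423 to 532 in MCK-Musclin libraries, with none at 0. Of 6 macrophage markers 2 were higher at that threshold, where 13.1% of all genes were, and they summed to 455 to 517 FPKM in WT and 502 to 707 in MCK-Musclin libraries. General adipocyte markers summed to 15093 to 15945 FPKM in WT and 13533 to 15147 in MCK-Musclin libraries, with 2 of 9 lower at an unadjusted p under 0.05. The marker lists, here and for BAT, were chosen with earlier results of these data known, so their counts are no independent evidence. The part of these cell types in the differences of the coat genes was not tested.

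Across the 6 iWAT libraries *Cidea* and *Plin5* varied together, with r = 0.96, and *Cidea* and *Plin2* had r = 0.80, while *Cidea* and *Plin1* had r = 0.31. The genes closest to *Cidea* among 12197 were *Elovl3* (r = 0.998), an elongase that is also among the brown and beige markers, *Coq9* and *Vldlr*, and the gene closest to *Plin5* was *Idh3b* (r = 0.989), a subunit of an enzyme of the tricarboxylic acid cycle. The gene closest to *Plin2* was *Scp2* (r = 0.996), which encodes a carrier and thiolase of peroxisomes. These correlations are over 6 libraries that share the genotype difference and the marker differences above, and they are given as a description.

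**Figure D2:**
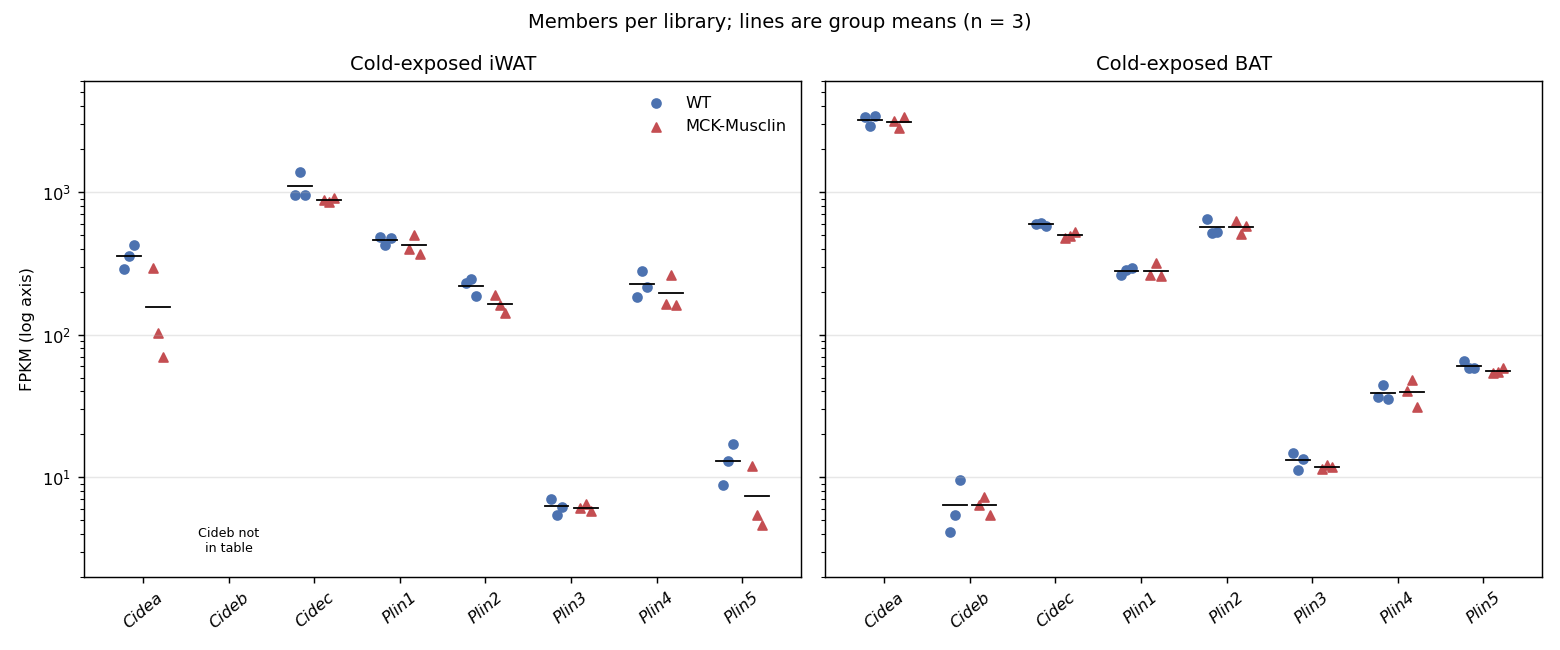
FPKM of the members in each cold-exposed iWAT and BAT library on a log axis, with WT as circles and MCK-Musclin as triangles, ordered by library number within a group, and lines at the group means (n = 3). In iWAT the *Cidea* triangles run from 294 down to 70.2 FPKM and the *Plin5* triangles from 11.9 down to 4.66, while in BAT the *Cidea* symbols of both genotypes share a range from 2829 to 3386 FPKM.

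In cold-exposed BAT the genotype differences of the coat genes were estimated to be small, with *Cidec* as the member past the unadjusted threshold. *Cidec* had 596, 609 and 579 FPKM across the WT libraries and 474, 492 and 526 across the MCK-Musclin libraries, so that every MCK-Musclin library was below every WT library. The means were 595 ± 15.1 (SD, n = 3) and 497 ± 26.6 (SD, n = 3). The log2 fold change was -0.26 with a standard error of 0.07 (unadjusted p = 0.00932, adjusted p = 0.929 over 10893 genes, limma), and it passed the unadjusted threshold whichever library was left out. Centred on the general adipocyte markers it was -0.17 and did not pass. The exact permutation p was 0.1, and no exact test of a member, 7 in iWAT and 8 in BAT, could go below it.

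*Cidea* had 3334, 2889 and 3386 FPKM across the WT BAT libraries and 3141, 2829 and 3371 across the MCK-Musclin libraries. The groups overlapped almost fully, and the log2 difference of -0.04 had a 95% interval from -0.27 to 0.19 (limma), which leaves out a loss of the size estimated in iWAT. *Plin5* had 65.6, 58.1 and 58.1 FPKM across the WT libraries and 53.6, 55.2 and 58.0 across the MCK-Musclin libraries. The *Plin5* groups did not overlap, by a margin of less than 0.1 FPKM, and the log2 difference of -0.12 did not pass (unadjusted p = 0.212, limma). *Plin2* had 515 to 649 FPKM in WT and 512 to 625 in MCK-Musclin mice, *Plin1* 263 to 294 and 259 to 320, *Plin4* 35.6 to 44.3 and 31.0 to 47.8, *Plin3* 11.2 to 14.9 and 11.4 to 12.2, and *Cideb* 4.16 to 9.64 and 5.43 to 7.25. All of these 5 pairs of ranges overlapped, and their log2 differences lay between -0.14 and 0.04. Some of the *Cideb* level could again come from *Nop9*, which had 1.49 to 2.87 FPKM in the BAT libraries.

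Of the 8 members in BAT, 1 was lower at an unadjusted p under 0.05, beside 2.71% of the 10893 genes tested. None had an adjusted p under 0.05, which 1 gene of the table (0.00918%) had. Every MCK-Musclin library was below every WT library for 2 members, *Cidec* and *Plin5*, and for 5.63% of all genes. Estimates were below 0 for 5 of the 8, for 4 after rescaling to the same sum or by median ratios, and for 3 after centring on the general adipocyte markers. Without rescaling, 52.3% of all genes tested in BAT had estimates below 0. Of 11 fast muscle markers 10 were higher in MCK-Musclin BAT at an unadjusted p under 0.05, where 2.18% of all genes were, and they summed to 522 to 826 FPKM in WT and 865 to 1846 in MCK-Musclin libraries. The muscle markers of MCK-Musclin library 1 came with macrophage markers at 107 FPKM, against 32.2 to 40.9 in the other 5 libraries. Their part in the differences of *Cidec* and *Plin5* was not tested. Of 10 brown and beige markers 1 passed the unadjusted threshold in BAT, and their median log2 fold change was 0.03.

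**Figure D3:**
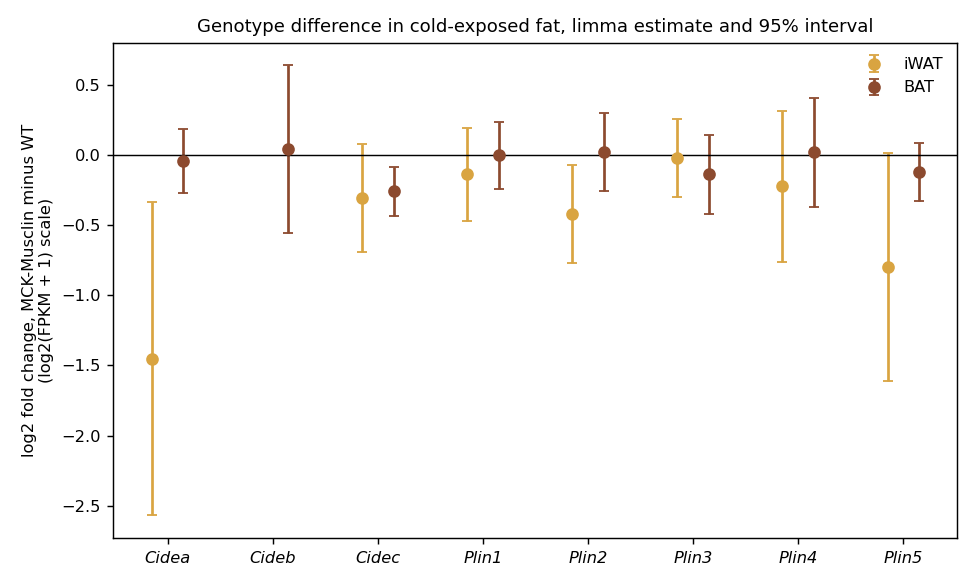
Log2 fold change of each member, MCK-Musclin minus WT on the log2(FPKM + 1) scale, with its 95% interval from limma (3 libraries against 3), in iWAT and in BAT. The iWAT intervals of *Cidea* (-2.57 to -0.34) and *Plin2* and the BAT interval of *Cidec* lie below 0, and the other intervals reach or cross it.

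The genotype difference was then compared between the depots. That of *Cidea* was -1.45 in iWAT and -0.04 in BAT, and the difference between these values, -1.41 (SE 0.55, 95% interval -2.61 to -0.22), passed an unadjusted p under 0.05 but not after adjustment (unadjusted p = 0.0245, adjusted p = 0.438 over 9757 genes, limma). It was the single member to pass of the 7 tested, beside 10.1% of all genes that passed in either direction, and 0% of genes passed after adjustment, so the share among members is close to that among all genes. For *Plin2* the difference between depots was -0.44 (adjusted p = 0.505) and for *Plin5* -0.68 (adjusted p = 0.573), and neither passed the unadjusted threshold (limma). For *Cidec*, lower in both depots, it was -0.05 with a 95% interval from -0.47 to 0.37, and for *Plin1*, *Plin3* and *Plin4* the 95% intervals also held 0.

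Ratios between coat genes within a library do not depend on its scaling, and none separated the genotypes. The ratio of *Cidea* to *Cidec* in iWAT was 0.303, 0.258 and 0.445 across the WT libraries and 0.333, 0.122 and 0.0775 across the MCK-Musclin libraries. The log2 difference of -1.16 had an exact two-sided permutation p of 0.3, where the smallest p that 3 libraries against 3 allow is 0.1. In BAT the ratio of *Cidea* to *Cidec* was higher by 0.22 on the log2 scale in MCK-Musclin mice (exact permutation p = 0.2). *Plin5* relative to *Plin1* in iWAT differed by -0.76 (exact permutation p = 0.2) and *Plin2* relative to *Plin1* by -0.29 (exact permutation p = 0.2). Over the 10 ratios computed, 5 in each depot, every adjusted p was 0.6 or more.

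Between the depots the levels of the coat genes differed in the WT mice after cold, but how far, and for some members in which direction, depended on how the libraries were scaled. The tables of iWAT and BAT were made separately and their FPKM sums differ, so the levels are set side by side without a test. These sums run over 13756 genes in iWAT and 55487 in BAT, so equal sums do not put like beside like. The RNA was also extracted in different ways, with a kit for white fat and with TRIzol for BAT. *Cidea* averaged 3203 FPKM in BAT and 358 in iWAT, 8.93 times higher in BAT as deposited, 4.58 times with each library rescaled to the same sum and 18.4 times by median-ratio scaling over the genes of both tables. *Plin5* was 4.67 times higher in BAT as deposited, and its iWAT level was 0.417 and 0.104 times that in BAT under those scalings. *Plin2* was 2.56 times higher in BAT, and 1.31 and 5.28 times. *Plin4* went the other way in all of them, being 5.85 times higher in iWAT as deposited, and 11.4 and 2.84 times. These 4 genes kept their direction, and their BAT and iWAT libraries did not overlap under any of the 3 scalings.

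The other members did not hold a side. *Plin3* had 13.1 FPKM in BAT and 6.25 in iWAT, but with each library rescaled to the same sum the BAT to iWAT ratio was 1.08 and the libraries overlapped. *Cidec* was 1.85 times and *Plin1* 1.65 times higher in iWAT as deposited, and 3.61 and 3.22 times with equal sums, whereas by median-ratio scaling *Cidec* was 1.11 times and *Plin1* 1.25 times higher in BAT, with overlapping libraries for *Cidec*. As deposited, all 7 members had BAT and iWAT libraries that did not overlap, as did 80.3% of the 9757 genes in both tables. That share was 93.1% with equal sums, where 6 of the 7 members did not overlap, and 66.1% by median-ratio scaling, where again 6 did not, so the lack of overlap says little about the coat genes.

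Within the perilipins *Plin2* made up 54.0% to 63.1% of summed FPKM in the 6 cold BAT libraries, *Plin1* 25.6% to 33.8%, *Plin5* 5.40% to 6.37% and *Plin4* 3.30% to 5.05%. In the 6 cold iWAT libraries *Plin1* made up 43.9% to 53.8%, *Plin4* 20.1% to 28.9%, *Plin2* 17.2% to 25.3% and *Plin5* 0.577% to 1.91%. The genotypes overlapped in each of these shares other than that of *Plin5* in BAT, which was 6.26% to 6.37% in WT and 5.40% to 6.17% in MCK-Musclin mice. *Cidea* made up 82.4% to 86.7% of the CIDE FPKM in cold BAT. In cold iWAT it made up 23.3%, 20.5% and 30.8% across the WT libraries and 25.0%, 10.9% and 7.19% across the MCK-Musclin libraries, the rest being *Cidec*.

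The fats of the 7 tissues, from mice without a cold treatment in the labels, had another make-up. *Plin2* was 564 FPKM on average in cold WT BAT and 140 in the single brown adipose library, a ratio of 4.03, and its share of the perilipins there was 19.0%. *Plin4* went the other way, with 38.8 FPKM in cold WT BAT and 142 in the brown adipose library, a ratio of 3.67 in favour of the latter. *Cidea* was 1.96 times higher in cold WT BAT, and *Plin5* had a ratio of 1.02 as deposited and 1.29 by median-ratio scaling. In white fat *Cidea* was 358 FPKM in cold WT iWAT and 0.385 in the white adipose library, a ratio of 931. *Plin5* was 3.63 times and *Plin2* 1.77 times higher in cold WT iWAT, while *Plin4* was 2.92 times and *Plin1* 1.92 times higher in the white adipose library. Temperature, depot, age, cell make-up and the separate processing of the tables cannot be told apart in these values, and the single libraries give no error.

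**Figure D4:**
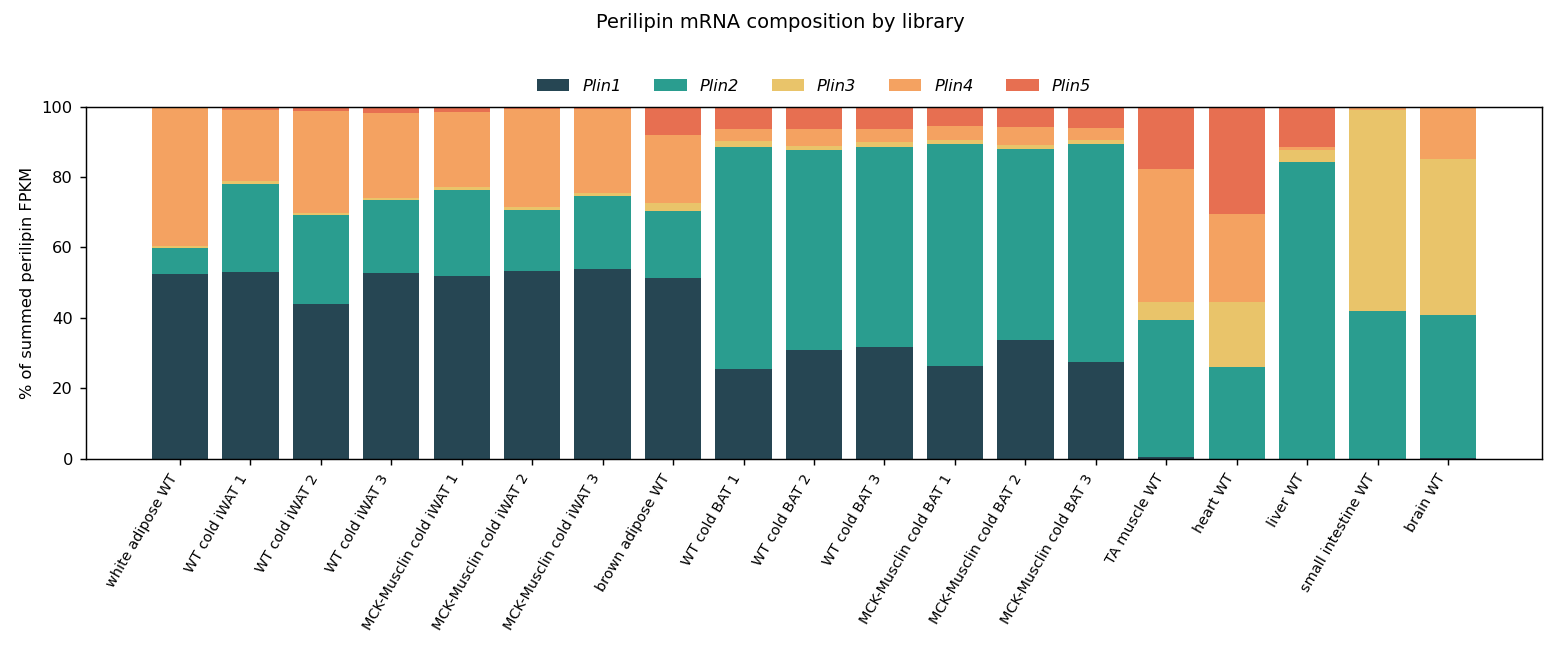
Share of *Plin1* to *Plin5* in the summed perilipin FPKM of each library, as stacked bars to 100%, for the fats of the 7 tissues, the 12 cold libraries and the other 5 tissues. *Plin1* takes the largest part in white adipose tissue and iWAT, *Plin2* in cold BAT (54.0% to 63.1%) and liver, and *Plin3* in small intestine.

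The genes that make, fill and empty the droplet were taken from 3 lists of 40 genes in all. These lists too were chosen with earlier results of these data known, so their counts are a description. In iWAT 36 of these were tested, 27 had lower estimates in MCK-Musclin mice, 5 were lower and 1 was higher at an unadjusted p under 0.05, and none passed after adjustment (limma). Over all genes of iWAT 38.7% had lower estimates, 3.44% were lower and 13.1% were higher at that threshold. Among 9 lipolysis genes, 8 had lower estimates and 2 passed the unadjusted threshold. *Pnpla2*, which encodes the first lipase of triglyceride breakdown (ATGL), had 1111, 1214 and 1283 FPKM across the WT libraries and 906, 1020 and 1023 across the MCK-Musclin libraries (log2 fold change -0.29, adjusted p = 0.279, limma), and its groups did not overlap. *Ces1d*, a carboxylesterase of fat, was lower by a log2 fold change of -0.36 (adjusted p = 0.218, limma). *Abhd5*, the coactivator that perilipin 1 holds, had a log2 fold change of -0.19, and *Lipe*, which encodes hormone-sensitive lipase, -0.07, and neither passed.

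Among 13 tested genes of droplet formation, 10 had lower estimates and 3 passed. *Lpin1*, the phosphatidate phosphatase that makes diacylglycerol, had 110, 107 and 106 FPKM across the WT libraries and 68.8, 65.4 and 74.1 across the MCK-Musclin libraries. Its groups were far apart relative to their spread, with a log2 fold change of -0.63 (SE 0.09, adjusted p = 0.143, limma), and MCK-Musclin library 1, which resembled WT libraries in *Cidea*, did not do so here. *Gpam*, which encodes a mitochondrial glycerol-3-phosphate acyltransferase, had a log2 fold change of -0.48 (adjusted p = 0.196) and *Pcyt1a*, which encodes the rate-limiting enzyme of phosphatidylcholine synthesis, -0.42 (adjusted p = 0.155). *Dgat2*, which encodes the acyltransferase of the final step of triglyceride synthesis, had -0.40 and did not pass. Of 14 tested genes for other droplet-associated proteins, 9 had lower estimates and 1 passed, *Aup1*, which was higher by 0.51 (adjusted p = 0.217). The medians of the 3 lists were -0.26, -0.40 and -0.02, beside 0.06 over all genes.

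In BAT 34 of the 40 genes were tested, 21 had lower estimates, 1 was lower and 1 was higher at an unadjusted p under 0.05, and none passed after adjustment (limma). Over all genes of BAT 52.3% had lower estimates, 2.71% were lower and 2.18% were higher, so the share of droplet genes called was close to that of all genes in both directions. The gene that was lower, *Dgat2*, had 244, 222 and 245 FPKM across the WT libraries and 188, 171 and 217 across the MCK-Musclin libraries, with a log2 fold change of -0.31 (adjusted p = 0.968, limma). The gene that was higher, *Clstn3*, of which a fat-specific form acts on droplets, had a log2 fold change of 0.25 (adjusted p = 0.968). All 8 tested lipolysis genes had lower estimates in BAT, with a median of -0.15, and 0 passed (limma, unadjusted), *Pnpla2* being at -0.20.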

How the data were processed

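RNA-Seq of 19 libraries was analysed. Per the study's methods, poly(A) RNA was fragmented and copied into cDNA from random primers, and the libraries were read on a NovaSeq machine. RNA of white fat was extracted with a kit and that of other tissues with TRIzol. The authors filtered the reads, aligned them with HISAT2 2.1.0 without using strand to mm10 (GRCm38), and deposited FPKM per gene and library. The methods name StringTie for FPKM, whereas the submitters' processing notes list Bowtie2 2.4.1, HISAT2 2.1.0 and Cuffdiff. The deposited iWAT table lists 13756 genes and also holds the authors' own comparison of the genotypes, which was not used. In the other deposited files 287 lines each repeat a gene, and each gene was used once. The markers chosen for the 7 tissues were each highest in their own tissue.

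Groups, taken from the labels, were compared within a table by limma 3.58.1 (R 4.3.3), using lmFit and trended eBayes on log2(FPKM + 1). Genes entered if their FPKM averaged 1 or more over the 6 libraries. This scale understates the change of low genes. A gene was called at an unadjusted p under 0.05, and Benjamini-Hochberg adjusted p-values over all genes tested are given beside it. The difference between depots was a contrast over the 12 cold libraries. Members and their ratios were also compared with exact permutation tests over libraries, those of the members being added after seeing the data, as were the rescaled levels across tables. limma was tested on simulated data. Python 3.11.15, numpy 2.4.6, pandas 2.3.3, scipy 1.17.1 and matplotlib 3.10.9 were used for the rest. Positions and exon overlaps came from GENCODE for GRCm38 and promoters from RefSeq. Depth is unknown in reads, so no counting interval can be given. Genes were named if they were members, were on the droplet or marker lists, were among the 3 genes most like a member, or shared exons with a member. The members and lists were chosen with earlier results of these data known. *Ostn* was added as the gene of the transgene. Alternatives were another pseudocount, other filters on low values, other scalings, centring on adipocyte markers, the replicate number as a block, untrended eBayes, and leaving out each library.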

Additional observations from a re-analysis of the deposited data

Results flagged for a closer look

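The difference of the genotype effect between the depots passed an unadjusted threshold for *Cidea*, 1 of 7 members tested, while 10.1% of all genes passed it, so the share of members is close to that of all genes. It was -1.41 on the log2 scale in iWAT minus BAT (limma, unadjusted p = 0.0245), and it did not pass after adjustment (adjusted p = 0.438), as 0% of genes did. The unadjusted call was lost without any of 3 iWAT libraries, with a difference of -1.28 without WT library 3 and of -1.25 and -0.98 without libraries 2 and 3 of the MCK-Musclin mice. In iWAT 2 of 3 MCK-Musclin libraries were below each WT library, and in BAT the genotypes overlapped. With 3 libraries in a group, no library was tested for standing apart.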

How the results depend on the processing

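The scale of each library and single libraries mattered most. Centring on the general adipocyte markers left 1 member called in iWAT, *Cidea*, and 0 in BAT (limma, unadjusted p under 0.05), and it turned the log2 fold changes of *Plin3* and *Plin1* in iWAT to 0.193 and 0.0790, those of *Cidea* and *Plin1* in BAT to 0.0480 and 0.0880, and the difference of *Cidec* between depots to 0.0787. That alternative also raised the genes called in iWAT from 2012 to 4176, and from 0 to 1030 after adjustment, with no member among the latter. *Plin1* in BAT was 0.0260 with each library rescaled to the same sum and 0.0040 by median-ratio scaling. In the 7 tissues the log2 ratio of the highest to the next tissue became -0.59 for *Plin2* with each library rescaled to the same sum and -0.77 for *Cideb* by median-ratio scaling. For levels set across tables, median-ratio scaling, chosen after seeing the data, turned the log2 ratio of cold WT BAT to cold WT iWAT to 0.15 for *Cidec* and 0.32 for *Plin1*, and that of cold WT BAT to the brown adipose library to 0.0134 for *Plin3*. The cause of these shifts was not tested.

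Leaving out a library moved the members called in iWAT between 0 and 3 and those whose difference differed between depots between 0 and 3, while the BAT call of *Cidec* stayed. Without MCK-Musclin library 3 of iWAT 0 members were called, beside 1395 of 12197 genes. Without MCK-Musclin library 1 of iWAT 3 members were called, *Cidea*, *Plin2* and *Plin5*, beside 1920 of 12182 genes. That library lay within the WT range of all 3 members, so leaving it out widens their differences. *Ostn* was at 0 there, but fast muscle markers were low there as well. Without WT library 1 of iWAT 86 genes passed after adjustment, none of them a member. The ratios that separated the genotypes numbered between 0 and 3, the 3 without MCK-Musclin library 1 of iWAT. That library lay within the WT range for *Cidea* to *Cidec* (0.333) and *Plin5* to *Plin1* (0.0298). Leaving it out therefore favours separation, and the separation that remained was not tested. Estimates near 0 changed sign, with log2 fold changes between -0.10 and 0.0609 for *Plin3* in iWAT, and in BAT between -0.12 and 0.18 for *Plin4*, -0.18 and 0.34 for *Cideb*, -0.11 and 0.0265 for *Cidea*, -0.0423 and 0.13 for *Plin2* and -0.0979 and 0.0527 for *Plin1*. The difference between depots ranged from -0.14 to 0.13 for *Cidec*.

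Libraries with the same number did not all deviate together over genes, so the numbers were not taken as pairs. Their r was 0.23, 0.06 and 0.11 for numbers 1, 2 and 3 in iWAT and -0.10, -0.005 and 0.009 in BAT. In iWAT library 1 of each genotype had r between -0.18 and -0.09 with libraries 2 and 3 of the other genotype. Whether library 1 of both genotypes shares a source of variation in iWAT was not tested. With the replicate number as a block, 2 members were called in iWAT and 1 in BAT, as without it, and the genes called changed from 2012 to 1956 in iWAT and from 533 to 523 in BAT. Not every library correlated best with its own number. A pseudocount of 0.1, a filter at a mean FPKM of 5 or none on low values, and untrended eBayes kept the counts of members called. Precision is limited by 3 libraries a group and, for the 7 tissues, by 1 library each, and depth in reads is unknown.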
